A study of Homo sapiens with 12 samples.

Results

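Gene expression was compared between nutrient-depleted and nutrient-rich Caco-2 cells that had all received bafilomycin A1, in 6 of the 12 libraries of an RNA sequencing study. Caco-2 is an established human colorectal adenocarcinoma line, labelled wild type here, that takes on features of small-intestinal enterocytes in culture. The rich group held 3 libraries of cells in Eagle's medium with 1 g/L glucose, 2 mM glutamine and 20% serum. The depleted group held 3 libraries of cells kept for 48 h in a DMEM formulation with 0.1 g/L glucose, 0.2 mM glutamine and 1% serum. Pyruvate (1 mM) and a supplement of non-essential amino acids (0.1 mM) were the same in both, and both groups received 100 nM bafilomycin A1 for 48 h at sub-confluence. Glucose, glutamine, serum and the base medium differed together, so their parts in any difference cannot be told apart. The 6 libraries were chosen by these labels, with earlier results of these data known. All 18047 genes that passed a filter on low counts were described. The other 6 libraries, vehicle in each medium, entered the fit and served only to test whether a medium difference depended on the drug. The labels do not state whether the 3 replicates of a group were separate cultures, and the p-values therefore measure only the scatter among these libraries, part or all of which may be technical.

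Bafilomycin A1 blocks the vacuolar proton pump (V-ATPase) that acidifies lysosomes, and so stops lysosomal breakdown of cargo delivered by autophagy and endocytosis. Cells short of nutrients normally lower mTORC1 signalling at the lysosome surface, start autophagy and recover amino acids from lysosomes. Shortage of amino acids or glucose also acts on translation and on protein folding in the endoplasmic reticulum, and the transcription factors ATF4, XBP1 and ATF6 carry these signals to the nucleus. Serum supplies growth factors that act through the ERK kinases and on the actin cytoskeleton.

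Replicate 3 of the rich group stood apart from its group and is named wherever it matters. On the first principal component of the 6 libraries (59.3% of the variance) it lay at -26.9, while rich replicates 1 and 2 lay at -61.3 and -69.4 and the depleted libraries at 42.3 to 58.8. Across genes it correlated (Spearman's rho) at 0.9846 and 0.9850 with the other rich libraries, and more closely with the 3 depleted vehicle libraries (0.9867, 0.9852 and 0.9901). Rich replicates 1 and 2 correlated at 0.9922. Of the 4352 genes called below, 3563 (81.9%) had rich replicate 3 shifted toward the depleted group, by a median of 28.4% of the way. That share is a description, since replicate 3 also entered the calls. Its counts differed from those of rich replicates 1 and 2 by more than sampling noise (chi-square per degree of freedom 78.3 and 109.7). Rich replicates 1 and 2 differed from each other at 33.06 and the depleted libraries at 67.78 to 103.75. Such an excess was therefore not particular to rich replicate 3. Whether its label is right was not tested, and each rich-group value and interaction count that includes it rests on that label. Counts and fold changes are therefore also given without it. The 6 libraries held 33859998 to 51649213 reads assigned to genes, and only the vehicle group of rich medium had a shallower one, at 12969814 reads. The difference between a gene's length and its effective length grows with fragment length. Over genes of intermediate length its median was 183, 192 and 201 in the rich and 170, 171 and 172 in the depleted libraries, with no overlap. Over all genes the gap was smaller, at 177.5, 174 and 176 in the rich and 170, 171 and 166 in the depleted libraries, also with no overlap.

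Of 18047 genes tested, 1893 (10.5%) were higher and 2459 (13.6%) lower in depleted medium at an edgeR adjusted p under 0.05, which is the meaning of a call throughout. At least 2-fold differences made up 632 of the higher and 1279 of the lower calls. The median log2 fold change over all genes was 0.01. Without rich replicate 3 the counts were 2047 (11%) and 2534 (13.6%) of 18683 genes, 3906 of the 4352 genes were called again in the same direction, 446 were lost and 675 were gained. Other single libraries mattered more for the number of calls. Genes called higher numbered 891 without rich replicate 2, 993 without rich replicate 1 and 1150 without depleted replicate 2, and genes called lower numbered 1455 and 1627 without rich or depleted replicate 2. The groups of 3 did not overlap for 8509 genes (47.1%). Among genes of at most 1698 bases 164 of 4512 were called higher and 619 lower, and among genes of at least 4397 bases 742 of 4515 were higher and 577 lower. A fit that used each library's effective gene lengths called 1954 higher and 2537 lower.

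**Figure D1:**
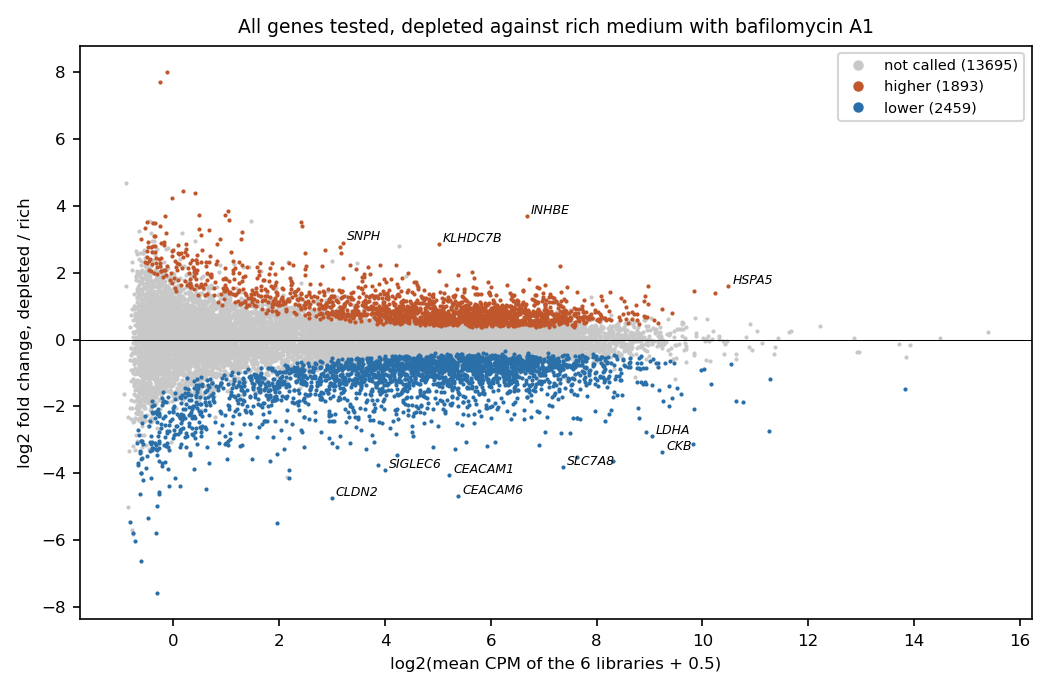
Log2 fold change between depleted and rich medium, both with bafilomycin A1 (vertical axis), against log2 of the mean CPM of the 6 libraries plus 0.5 (horizontal axis); each point is 1 of 18047 genes. The 1893 genes called higher and the 2459 called lower include weakly and strongly expressed genes, and the lowest of the named genes are CLDN2 at -4.75 and CEACAM6 at -4.69.

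The 10 lowest named genes fell by more than 3 on the log2 scale. They, and the 10 highest below, were picked among called genes with a mean of 5 CPM or more. Their groups also had to be without overlap, and the call had to hold without rich replicate 3. Those traits therefore follow from the choice. Genes with a lower mean, such as CA12 (-3.9), are described with their lists. CLDN2, a claudin that forms cation- and water-permeable pores in leaky epithelia, stood at 15.7, 19.3 and 7.99 CPM in rich replicates 1, 2 and 3 and at 0.497, 0.615 and 0.477 CPM in the depleted libraries (log2 fold change -4.75, SE 0.39, edgeR adjusted p = 6.6e-06; -5.04 without rich replicate 3). All depleted libraries lay far below the lowest rich one. The adhesion molecule gene CEACAM6 fell from 76.2, 128 and 33.7 to 4.23, 3.10 and 1.79 CPM, and CEACAM1 from 81.7, 91.5 and 34.1 to 6.09, 4.02 and 2.23 CPM. In both, rich replicate 3 was the lowest of its group, and above every depleted library as the choice required. CEACAM genes are close copies of one another, so the split of reads between them is uncertain. SLC7A8, which carries large neutral amino acids across the basolateral membrane, stood at 382, 378 and 162 CPM in rich and 24, 23.6 and 18 CPM in depleted medium (log2 fold change -3.81, SE 0.35, edgeR adjusted p = 1.5e-05). The creatine kinase gene CKB (log2 fold change -3.36), the cysteine protease inhibitor gene CST1 (-3.62), the interstitial collagenase gene MMP1 (-3.45), SIGLEC6, a sialic acid-binding lectin (-3.92), and SH3TC2 (-3.74) completed the 10 lowest with CCND1, described below. None of these 10 calls was lost when any 1 library was left out, which the choice had fixed only for rich replicate 3.

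At the other end INHBE, which encodes an activin subunit made in stressed liver, stood at 6.79, 7.70 and 29.2 CPM in rich and at 151, 210 and 207 CPM in depleted medium (log2 fold change 3.71, SE 0.46, edgeR adjusted p = 0.00019; 4.71 without rich replicate 3). The choice required groups without overlap, and here all depleted libraries lay far above the highest rich one. SNPH, which anchors axonal mitochondria, rose from 1.48, 1.76 and 2.90 to 11.2, 17.7 and 17 CPM. ASPA, which splits N-acetylaspartate, rose by 2.78 on the log2 scale, the co-chaperone gene DNAJC12 by 2.67 and the apoptosis inhibitor gene BIRC7 by 2.60. The pro-apoptotic BH3-only gene HRK also rose by 2.60, from 1.32, 0.676 and 2.36 to 4.58, 8.99 and 12.8 CPM. The glutamate receptor subunit gene GRIN2C (2.25), the microtubule-binding protein gene MAP1B (2.23) and the endoplasmic reticulum oxidase gene ERO1B (2.22) closed the 10 highest with KLHDC7B (2.86). KLHDC7B, at 1.57, 1.91 and 19.8 CPM in rich and 37.7, 61.3 and 68.6 CPM in depleted medium, lost its call in 9 of 12 fits that left out 1 library, while without rich replicate 3 its log2 fold change was 5.00. The other 9 kept theirs.

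Genes were also read in 36 lists of pathways, complexes and cell markers, each set against the background of 10.5% higher and 13.6% lower. The lists were chosen with earlier results of these data known, so their shares are descriptions and not tests. The lists with the largest shares of called members were glycolysis, mitosis, YAP and SRF targets, ERK feedback genes and DNA replication among the lower, and endoplasmic reticulum chaperones and the ATF4 response among the higher.

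**Figure D2:**
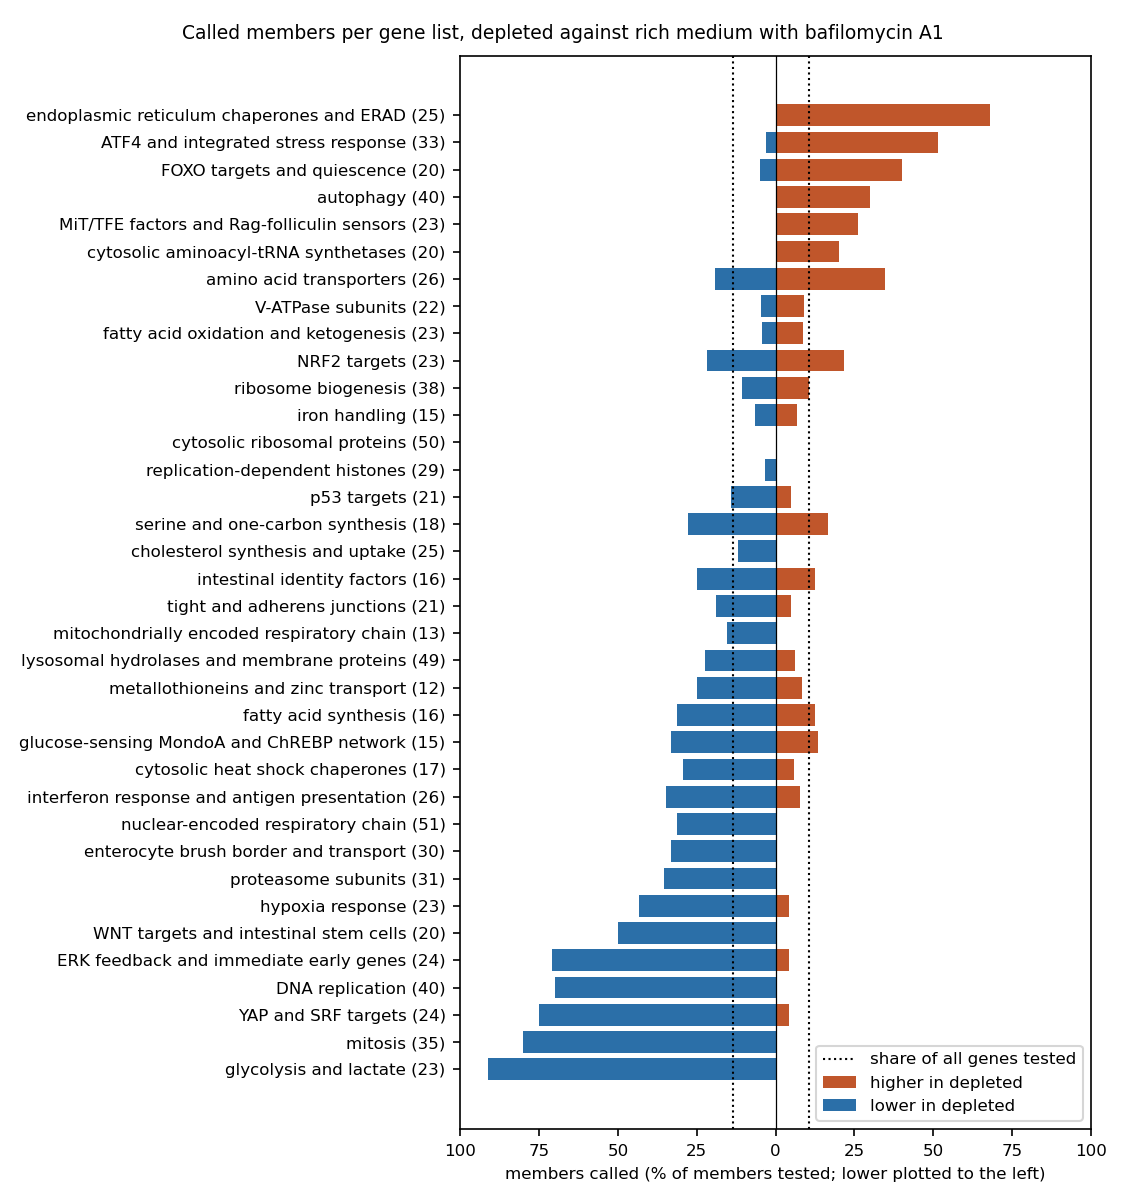
Share of tested members called higher (right, orange) or lower (left, blue) in depleted medium for 36 gene lists, in percent, with the number of tested members in brackets; dotted lines mark the 10.5% and 13.6% of all genes tested. Glycolysis has the largest share on the left (21 of 23 members) and the endoplasmic reticulum list on the right (17 of 25).

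Glucose uptake and glycolysis transcripts fell nearly throughout. Of 23 members 21 were lower and 0 higher, with a median log2 fold change of -1.44, and without rich replicate 3 it was 22 lower with a median of -1.65. SLC2A1, the widely expressed glucose transporter GLUT1, stood at 1630, 2300 and 958 CPM in rich and 174, 204 and 184 CPM in depleted medium (log2 fold change -3.12, SE 0.33, edgeR adjusted p = 2.6e-05). LDHA, which converts pyruvate to lactate, fell from 930, 1380 and 470 to 137, 117 and 125 CPM (-2.88, SE 0.29). In both genes the depleted libraries were close together and below all rich ones, and rich replicate 3 held the lowest rich value. The high-affinity transporter gene SLC2A3 fell from 4250, 5620 and 2970 to 575, 820 and 516 CPM, and PFKP, a phosphofructokinase that commits glucose to glycolysis, from 359, 445 and 233 to 70.4, 64.5 and 64.8 CPM.

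The MondoA and ChREBP factors read out glucose phosphates, and 5 of 15 genes of that network were lower and 2 higher. TXNIP, a target that restrains glucose uptake, stood at 59.4, 50.7 and 19.2 CPM in rich and 9.03, 9.80 and 9.62 CPM in depleted medium (log2 fold change -2.18, SE 0.32, edgeR adjusted p = 0.0003). KLF10 fell by 1.55 on the log2 scale and SLC2A5, a fructose transporter, by 2.21. ARRDC4, a relative of TXNIP, fell by 1.5, a call that was lost without depleted replicate 3 or rich replicate 1. Against the rest, HBP1, a repressor of cell cycle genes, rose from 44.5, 45.7 and 55.9 to 125, 118 and 118 CPM, and MLXIP, the MondoA gene itself, had a log2 fold change of 0.53 with a call lost in 4 of the fits that left out 1 library. Genes of the hypoxia response overlap with glycolysis in their control by HIF-1. Of 23 tested, 10 were lower and 1 higher (median -0.34), but 5 were lower without rich replicate 2. The carbonic anhydrase gene CA12 fell from 5.54, 12.2 and 4.97 to 0.478, 0.615 and 0.417 CPM, the collagen prolyl hydroxylase gene P4HA1 by 1.51 and the oxidase gene ERO1A by 1.36 on the log2 scale, while VEGFA, the vascular growth factor, was not called (0.38, edgeR adjusted p = 0.068).

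Genes that report growth factor signalling through ERK fell as a group, with 17 of 24 lower, 1 higher and a median of -1.66 (18 lower and 1 higher, median -1.91, without rich replicate 3). CCND1, cyclin D1, which drives entry into the cell cycle, stood at 403, 467 and 218 CPM in rich and 38.2, 30.1 and 27.3 CPM in depleted medium (log2 fold change -3.51, SE 0.25, edgeR adjusted p = 4.7e-06). DUSP6, the phosphatase that ERK induces to limit itself, fell from 65.4, 61.6 and 33.7 to 5.35, 7.08 and 4.80 CPM. The depleted values did not overlap the rich ones in either gene, and rich replicate 3 was the lowest of its group. The ETS factor gene ETV4 fell by 3.06 on the log2 scale, the feedback inhibitor gene SPRY4 by 2.58 and the immediate early gene EGR1 by 1.71. FOS was not called (-0.56, edgeR adjusted p = 0.058). FOSB was the 1 member that rose, from 1.55, 1.17 and 2.87 to 6.62, 9.11 and 9.65 CPM.

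Targets of YAP and of SRF, which respond to adhesion, actin tension and serum, were lower in 18 of 24 cases and higher in 1 (median -1.01; 17 and 0 without rich replicate 3). ANKRD1, a common YAP readout, stood at 147, 118 and 61.1 CPM in rich and 10.1, 11.6 and 14 CPM in depleted medium (log2 fold change -3.19, SE 0.28, edgeR adjusted p = 1e-05). TAGLN2, an actin-binding protein, fell from 331, 361 and 253 to 58.9, 60.2 and 65.9 CPM, the myosin light chain gene MYL9 by 2.03 and the matricellular gene CCN1 by 1.91 on the log2 scale. Its relative CCN2, also a YAP target, was at 7.41, 8.24 and 9.46 CPM in rich and 8.43, 8.42 and 5.30 CPM in depleted medium and was not called (-0.18, edgeR adjusted p = 0.68). The ectonucleotidase gene NT5E, higher by 1.23, lost its call without rich replicate 2 or 3 or depleted replicate 2.

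Cell division genes fell with these. Among 40 genes of DNA replication 28 were lower and 0 higher (median -0.97), and 33 without rich replicate 3. RRM2, the inducible subunit of the enzyme that makes deoxynucleotides, stood at 141, 154 and 63.7 CPM in rich and 17.1, 13.3 and 12.4 CPM in depleted medium (log2 fold change -3.06, SE 0.27, edgeR adjusted p = 1e-05). UHRF1, which keeps DNA methylation at the fork (-2.49), the origin factor gene MCM10 (-2.28) and the thymidine kinase gene TK1 (-2.14) also fell. Of 35 mitosis genes 28 were lower and 0 higher (median -0.86), 29 without rich replicate 3 and 21 without depleted replicate 2. The groups did not overlap for 32 of the 35, against 47.1% of all genes tested. CDK1, the kinase that starts mitosis, fell from 346, 320 and 233 to 93.3, 96.7 and 96.8 CPM (-1.65, SE 0.21), the securin gene PTTG1 by 1.81 and the kinase gene AURKB by 1.65. MKI67, the proliferation marker, fell from 147, 185 and 127 to 73.5, 56.4 and 34.4 CPM. In both lists rich replicate 3 lay between its partners and the depleted libraries, with list medians of -0.42 and -0.23 on a log2 scale relative to the rich mean. Replication-dependent histone genes, which are near-identical copies, were lower in 1 of 29 cases, and in 7 without rich vehicle replicate 3.

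Promoters of mitotic genes often carry the cell cycle homology region (CHR), the letters TTTGAA, through which the DREAM complex silences them in resting cells. The letters on either strand (TTTGAA or TTCAAA), searched from 250 bases before to 50 after the RefSeq start, were in 21 of 30 mitosis promoters, including 17 of the 24 of called genes. They were in 10.3% of the promoters of 12548 tested genes with an entry, in 13.3% of those called lower and in 8.99% of those called higher. Promoters of CDK1 and MKI67 are shown up to the start because both genes fell and hold a match, marked in capitals, which begins 161 bases before the start in CDK1 (chr10:60778081-60778330, plus strand, GRCh38.p14) and 47 bases before it at the first of 2 matches in MKI67 (chr10:128126424-128126673, minus strand).
CDK1: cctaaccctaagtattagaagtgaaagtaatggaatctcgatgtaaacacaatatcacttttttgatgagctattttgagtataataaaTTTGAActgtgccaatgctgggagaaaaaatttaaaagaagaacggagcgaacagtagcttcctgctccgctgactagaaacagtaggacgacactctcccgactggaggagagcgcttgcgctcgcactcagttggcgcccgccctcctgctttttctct
MKI67: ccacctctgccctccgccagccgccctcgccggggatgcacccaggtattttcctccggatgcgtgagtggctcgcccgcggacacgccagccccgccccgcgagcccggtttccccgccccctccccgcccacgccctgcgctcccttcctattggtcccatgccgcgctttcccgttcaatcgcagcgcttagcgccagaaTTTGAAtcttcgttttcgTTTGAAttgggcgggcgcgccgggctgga

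Protein folding genes of the endoplasmic reticulum rose. Of 25 chaperones and degradation factors 17 were higher and 0 lower, with a median log2 fold change of 0.88 and a median of 1.11 with 17 higher without rich replicate 3. HSPA5, the main chaperone BiP, stood at 617, 580 and 942 CPM in rich and 1720, 2770 and 2010 CPM in depleted medium (log2 fold change 1.60, SE 0.28, edgeR adjusted p = 0.00096). ERN1, which encodes the sensor IRE1 that splices XBP1 mRNA, rose from 38.5, 41.9 and 58.9 to 152, 180 and 155 CPM. SEL1L, the scaffold of the retrotranslocation complex, rose by 1.61 and the co-chaperone gene DNAJB9 by 1.56 on the log2 scale. Every depleted library lay above every rich one in these 4 genes, with rich replicate 3 the highest of its group. The endoplasmic reticulum stress element (ERSE), CCAAT and CCACG separated by 9 bases of any kind, on either strand, binds ATF6 together with NF-Y. A search added after the list's values were seen found it in 6 of 22 promoters of this list, among them 3 of 16 called genes (CRELD2, HSPA5 and XBP1), against 0.12% of all 12548 promoters, 0.408% of those called higher and 0% of those called lower. The upstream 250 bases of HSPA5 (chr9:125241344-125241593, minus strand) and of CRELD2 (chr22:49918384-49918633, plus strand) show it in capitals, 66 and 80 bases before the start, in the reverse orientation in CRELD2. CRELD2, a disulfide isomerase-like protein chosen for display after its values were seen, stood at 10.7, 11.5 and 18.3 CPM in rich and 21.8, 27.0 and 23.3 CPM in depleted medium (log2 fold change 0.83).
HSPA5: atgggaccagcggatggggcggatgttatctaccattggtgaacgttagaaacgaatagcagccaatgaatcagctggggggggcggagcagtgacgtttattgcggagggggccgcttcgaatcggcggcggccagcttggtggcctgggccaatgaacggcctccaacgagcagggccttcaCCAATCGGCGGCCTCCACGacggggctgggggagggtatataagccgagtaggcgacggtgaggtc
CRELD2: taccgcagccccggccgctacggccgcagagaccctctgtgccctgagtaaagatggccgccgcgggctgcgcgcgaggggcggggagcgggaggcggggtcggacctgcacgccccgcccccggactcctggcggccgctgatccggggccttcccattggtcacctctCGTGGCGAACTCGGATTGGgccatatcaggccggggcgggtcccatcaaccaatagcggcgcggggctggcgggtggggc

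The ATF4 programme, which the integrated stress response starts when amino acids run short or proteins misfold, was higher in part. Of 33 members 17 were higher and 1 lower (median 0.93), and 28 had a positive log2 fold change. It was 20 and 0 without rich replicate 3, and 11 higher without rich replicate 2. DDIT3, which encodes CHOP, stood at 22.2, 20.3 and 53.8 CPM in rich and 96.6, 88.9 and 101 CPM in depleted medium (log2 fold change 1.58, SE 0.31, edgeR adjusted p = 0.0024). The pseudokinase gene TRIB3 rose from 265, 255 and 330 to 593, 538 and 602 CPM and ATF3 from 36.4, 38.5 and 40.3 to 107, 127 and 122 CPM (1.63, SE 0.16). SESN2, a leucine sensor that restrains mTORC1, rose by 1.07, a call lost without rich replicate 2. The nutrient-responsive factor gene KLF15 (1.96) and the glutathione-degrading enzyme gene CHAC1 (0.76) were also called, and each lost its call without rich replicate 1 or 2 and with some depleted libraries left out. Rich replicate 3 lay above both of its partners in DDIT3, TRIB3, SESN2, KLF15 and CHAC1. Of the 15 members not called, ATF4, ASNS and GDF15 lay near 0, while NIBAN1 (2.80, edgeR adjusted p = 0.053), NUPR1 (1.12) and FGF19 (1.03), chosen here after their values were seen, had large positive values. ATF4 mRNA itself stood at 496, 556 and 695 CPM in rich and 599, 537 and 674 CPM in depleted medium (0.05, edgeR adjusted p = 0.90), ASNS, asparagine synthetase, at 219, 191 and 227 against 210, 215 and 250 CPM (0.09, edgeR adjusted p = 0.72), and GDF15, a stress cytokine, at 114, 112 and 70.3 against 83.6, 99.2 and 80.8 CPM (-0.17, edgeR adjusted p = 0.71). The groups overlapped in all 3 genes. JDP2, a repressor that dimerises with JUN, was the member called lower, at -0.53, and lost that call without rich or depleted replicate 3.

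The C/EBP-ATF response element (CARE), searched as TGATGNAA or TTNCATCA, was in 6 of 27 promoters of this list and in 1.9% of all, 2.59% of those called higher and 1.49% of those called lower. The 4 called members with a match were ATF3, CHAC1, KLHDC7B and PPP1R15B. ATF3, whose call held when any 1 library was left out, is shown with the match in capitals 191 bases before the start (chr1:212565157-212565406, plus strand). KLHDC7B had a larger log2 fold change (2.86) but lost its call in 9 fits that left out 1 library, and is not shown. The search covered other motifs too. The CLEAR E-box (GTCACGTG) was in 2 of 35 autophagy promoters and in 4.14% of all. The sterol element SRE (TCACNCCA) was in 3 of 18 sterol promoters, 0 of the 3 called genes, and 3.39% of all. The carbohydrate E-box (CACGTG) was in 4 of 13 MondoA and ChREBP promoters, 9.79% of all and 7.17% of those called lower.
ATF3: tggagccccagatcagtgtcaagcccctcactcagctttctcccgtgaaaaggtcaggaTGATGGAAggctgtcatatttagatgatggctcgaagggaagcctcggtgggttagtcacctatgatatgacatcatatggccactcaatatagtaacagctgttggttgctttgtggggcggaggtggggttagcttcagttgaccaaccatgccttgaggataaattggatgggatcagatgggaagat

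Amino acid handling moved in both directions. Of 26 transporter genes 9 were higher and 5 lower, the same counts as without rich replicate 3, but 3 were higher without rich replicate 1 or 2, and 3 lower without rich replicate 2 or depleted replicate 2 or 3. SLC3A2, the heavy chain CD98 that partners several exchangers, stood at 434, 460 and 1090 CPM in rich and 1340, 2150 and 1740 CPM in depleted medium (log2 fold change 1.40, SE 0.36, edgeR adjusted p = 0.011), with rich replicate 3 near the depleted range, and its call was lost without rich replicate 1 or 2. Its light chains did not follow in one direction. SLC7A11, which imports cystine, rose from 113, 104 and 169 to 231, 290 and 227 CPM, while SLC7A5, the leucine transporter LAT1, fell from 678, 751 and 594 to 259, 302 and 243 CPM (-1.33), and SLC7A8 fell as above. The glutamine carrier gene SLC38A3 rose by 1.55 and SLC36A4, a tryptophan and proline transporter, by 1.01. Among 20 cytosolic aminoacyl-tRNA synthetases 4 were higher and 0 lower, 2 without rich replicate 1 and 8 without rich vehicle replicate 1, led by WARS1 (0.86) and EPRS1 (0.82). In serine and one-carbon synthesis thymidylate synthase TYMS (-1.56), the glycine cleavage gene GLDC (-1.54) and the cytosolic MTHFD1 (-0.93) fell, and the mitochondrial ALDH1L2 (1.35) and SHMT2 (0.80) rose, among 5 lower and 3 higher of 18.

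**Figure D3:**
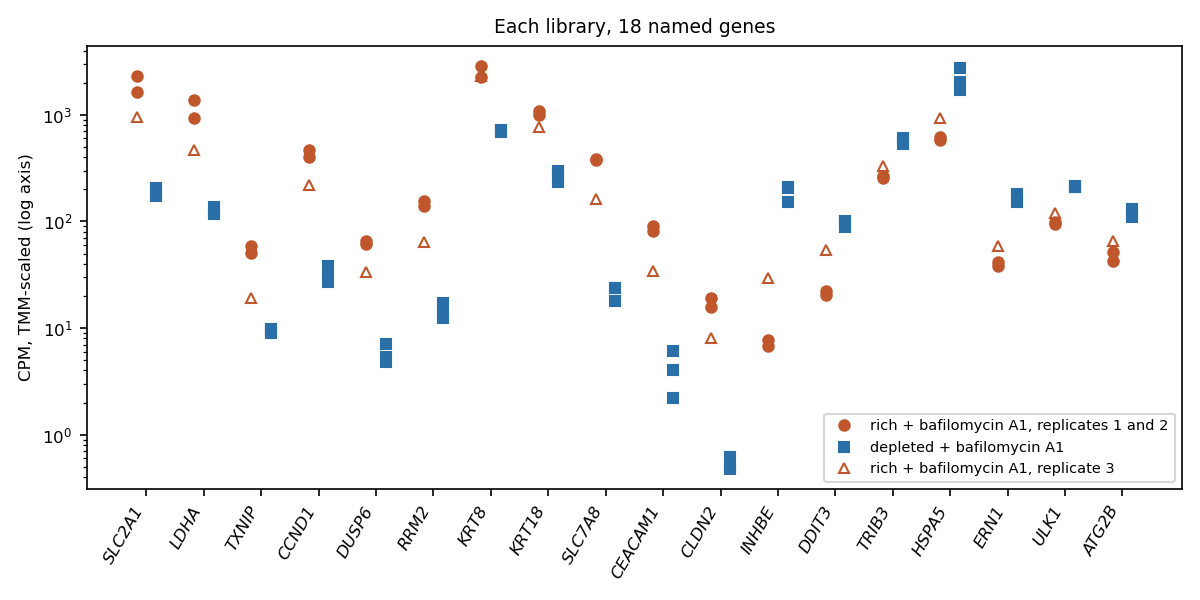
CPM, scaled by TMM, on a log axis for 18 genes in each of the 6 libraries (circles: rich replicates 1 and 2; open triangles: rich replicate 3; squares: depleted). In 11 genes from SLC2A1 to CLDN2 the depleted libraries lie below all rich ones and in 7 from INHBE to ATG2B above them, and rich replicate 3 lies between the other rich and the depleted libraries in many, for example in INHBE at 29.2 CPM.

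Autophagy genes shifted upward by small amounts. Of 40 members 12 were higher and 0 lower (median 0.32), again 12 and 0 without rich replicate 3, but 7 without rich replicate 2 or depleted replicate 3. ULK1, the kinase that starts autophagosome formation, stood at 95.5, 98.8 and 120 CPM in rich and 211, 211 and 216 CPM in depleted medium (log2 fold change 1.02, SE 0.16, edgeR adjusted p = 0.00048). ATG2B, a lipid transfer protein of the growing membrane, rose from 52.2, 42.7 and 66.0 to 118, 130 and 111 CPM, the phosphoinositide effector gene WIPI1 by 0.91 and the LC3-conjugating enzyme gene ATG3 by 0.80. MAP1LC3B, which encodes LC3B, had a log2 fold change of 0.64 and lost its call without rich replicate 2 or 3 or depleted replicate 3. The receptor gene SQSTM1 (p62) was not called, at 724, 664 and 577 against 800, 916 and 999 CPM (0.47, edgeR adjusted p = 0.09), although its groups did not overlap. Of 23 genes of the MiT/TFE factors and the Rag and folliculin nutrient sensors 6 were higher and 0 lower, with and without rich replicate 3. NPRL2, a subunit of the GATOR1 complex that inhibits the Rag GTPases, rose from 16, 17.6 and 17.4 to 42.6, 51.9 and 64.9 CPM (1.64, SE 0.23), RRAGC, a Rag GTPase, by 0.93 and MITF by 0.82.

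Lysosomal genes did not rise with them. Of 49 hydrolases and membrane proteins 3 were higher and 11 lower (median -0.14; the same counts without rich replicate 3, and 6 lower without rich replicate 2). PPT1, a lipase that removes palmitate from proteins, stood at 195, 196 and 118 CPM in rich and 41.3, 55.1 and 45.4 CPM in depleted medium (log2 fold change -1.84, SE 0.22, edgeR adjusted p = 7.4e-05). The cathepsin genes CTSC (-1.51), CTSZ (-1.05) and CTSB (-1.05) fell as well, each with no overlap between groups. The cystine exporter gene CTNS rose from 21.3, 21.5 and 19.4 to 38.8, 46.7 and 33.3 CPM. LAMP3, a stress-induced lysosomal membrane protein, was at 9.09, 6.43 and 42.8 CPM in rich and 62.1, 105 and 70.9 CPM in depleted medium, and its log2 fold change of 2.03 was 3.35 without rich replicate 3, but the call was lost without rich replicate 1 or 2, any 1 depleted library, rich vehicle replicate 2 or depleted vehicle replicate 3. Of 22 V-ATPase subunit genes, whose products bafilomycin A1 blocks, 2 were higher, ATP6V0A2 (0.86) and ATP6V1H (0.59), and 1 lower, ATP6V0C (-0.80), the proteolipid that the drug binds. The call of ATP6V0C was lost without rich replicate 2.

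The count of sterol genes moved with single libraries. Of 25 cholesterol synthesis and uptake genes 3 were lower and 0 higher (median -0.36), 10 lower without rich replicate 3, and 0 without rich replicate 1, rich replicate 2 or depleted replicate 3. The 3 were the sterol isomerase gene EBP (-0.79), the demethylation enzyme gene NSDHL (-0.69) and the farnesyl diphosphate synthase gene FDPS (-0.68), and the groups overlapped in each. The list's median level was 0.16, 0.40 and -0.56 in rich replicates 1, 2 and 3 and -0.13, -0.21 and -0.34 in the depleted libraries, on a log2 scale relative to the rich mean, so rich replicate 3 lay below every depleted library. INSIG1, which retains the sterol sensor in the endoplasmic reticulum, stood at 437, 481 and 221 CPM in rich and 275, 290 and 323 CPM in depleted medium (log2 fold change -0.36, edgeR adjusted p = 0.29, against -0.63 and 0.016 without rich replicate 3). HMGCS1, an early enzyme of the pathway (-0.54), was likewise not called with rich replicate 3 and called without it. Fatty acid synthesis genes were lower in 5 and higher in 2 of 16 cases (7 and 2 without rich replicate 3, and 3 lower without rich replicate 2 or depleted replicate 3). The elongase gene ELOVL6 fell by 1.22 and the desaturase gene SCD5 by 1.63, while GPAM, which starts triglyceride synthesis, rose from 68.3, 62.3 and 117 to 186, 214 and 205 CPM. Fatty acid oxidation genes were called in 3 of 23 cases. PPARA, the receptor that drives the pathway, had a log2 fold change of 0.70 and the carnitine carrier gene SLC25A20 of 0.54. That share lies below the 24.1% of all genes called in either direction, and all 3 calls were lost without rich replicate 2. The calls of PPARA and SLC25A20 were also lost without rich replicate 1 or depleted replicate 3, and that of SLC25A20 without depleted replicate 2.

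**Figure D4:**
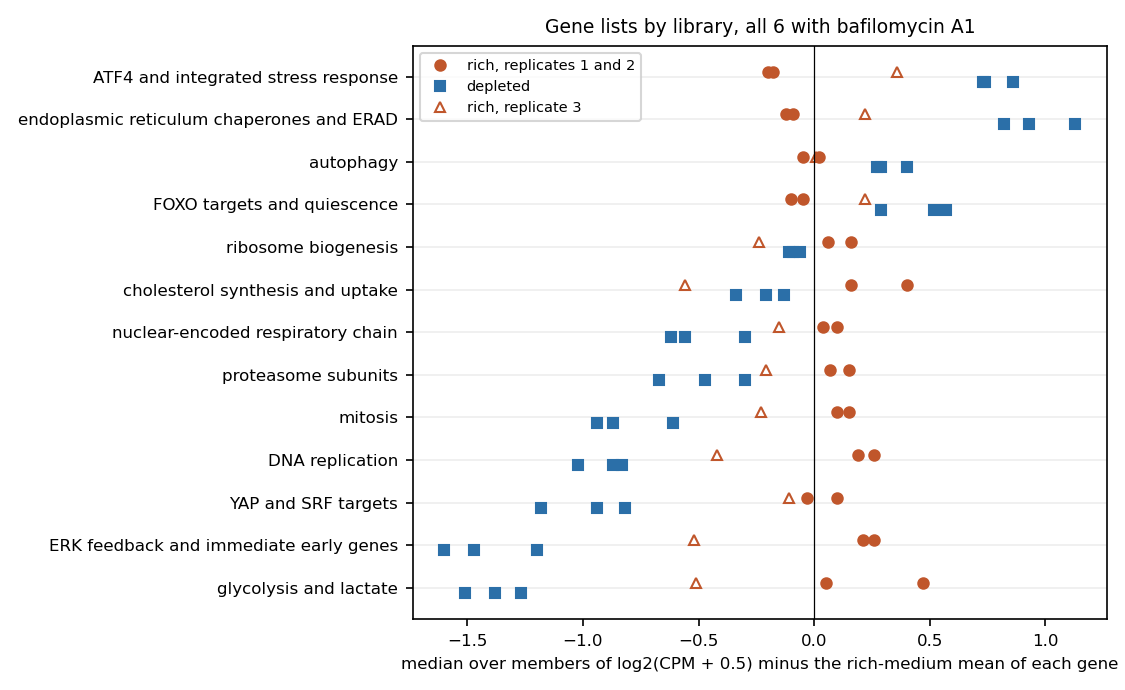
Level of 13 gene lists in each of the 6 libraries (circles and open triangles: rich; squares: depleted), as the median over members of log2(CPM + 0.5) minus each gene's mean over the rich libraries. Rich replicate 3 (open triangle) lies nearer to the depleted libraries than its partners in the ATF4, endoplasmic reticulum, DNA replication, ERK and glycolysis lists, and below all depleted libraries for cholesterol synthesis (-0.56).

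Mitochondrial and proteasome genes had negative medians. Of 51 nuclear-encoded respiratory chain genes 16 were lower and 0 higher (median -0.55; 17 without rich replicate 3, 5 without rich replicate 1 and 27 without rich vehicle replicate 3). NDUFB3 of complex I fell from 31.0, 31.5 and 24.2 to 8.37, 8.07 and 12.6 CPM and COX6B1 of complex IV from 83.9, 90.1 and 71.7 to 38.0, 33.2 and 41.5 CPM. Of 13 mitochondrially encoded genes 2 were called lower, COX2 (-1.33) and COX3 (-0.91), although all 13 had a negative log2 fold change (median -1.08, and -1.02 without rich replicate 3). The groups did not overlap for 10 of the 13, against 47.1% of all genes tested. The count of calls depended on the fit. It was 11 in a fit of only the 6 libraries, 6 without rich vehicle replicate 2, and 0 without rich replicate 1 or 3 or depleted replicate 2 or 3. Of 31 proteasome subunit genes 11 were lower and 0 higher (median -0.53; 16 without rich replicate 3, 1 without rich replicate 1, rich replicate 2 or depleted replicate 2, and 19 without rich vehicle replicate 3). Of these genes 35 of 51, 12 of 13 and 20 of 31 had at most 1698 bases, the class of short genes with 619 lower calls given above, and the part of gene length in these counts was not tested. Cytosolic heat shock chaperones were lower in 5 of 17 cases and higher in 1, with the mitochondrial HSPE1 (-1.31), HSPA8 (-0.88) and HSP90AA1 (-0.85) lower, and 3 were lower without rich or depleted replicate 2. Of 50 cytosolic ribosomal protein genes 0 were called in either direction by edgeR, 2 were lower and 0 higher at an unadjusted p under 0.05, DESeq2 called 1 lower, and edgeR called 3 lower without rich vehicle replicate 3. The smallest adjusted p belonged to RPL7A (-0.59, edgeR adjusted p = 0.054).

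Epithelial and intestinal genes were lower in part. The summed level of 5 epithelial markers (EPCAM, CDH1, KRT8, KRT18 and KRT19) ranged from 5290 to 6610 CPM in rich and from 2730 to 3140 CPM in depleted medium, and that of 6 intestinal markers from 1150 to 1470 and from 764 to 965 CPM, with CDX1 at 0 in every library. The keratin gene KRT8 stood at 2260, 2890 and 2330 CPM in rich and 716, 695 and 693 CPM in depleted medium (log2 fold change -1.83, SE 0.23, edgeR adjusted p = 8.2e-05), and its partner KRT18 fell by 1.82. E-cadherin (CDH1) was not called (-0.05, edgeR adjusted p = 0.90). In these bulk samples, fewer cells of a type and less RNA per cell cannot be told apart. Markers of other cells were low in both groups. Summed levels were 22.8 to 38.6 CPM for 6 fibroblast, 3.16 to 6.82 CPM for 4 endothelial, 3.93 to 12.2 CPM for 5 immune, 1.58 to 5.57 CPM for 5 goblet and 0.328 to 0.637 CPM for 4 enteroendocrine markers, of which CHGA, NEUROD1 and GCG were at 0.

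Of 30 enterocyte brush border and transport genes 10 were lower and 0 higher (median -0.56; 9 lower and 3 higher without rich replicate 3, and 5 lower without depleted replicate 3). LCT, lactase, fell from 4.19, 9.20 and 3.61 to 0.736, 0.426 and 0.149 CPM (log2 fold change -3.64, SE 0.52), and CEACAM5, another adhesion molecule of the CEACAM family, by 3.09. Among 16 intestinal identity factors GATA6 (-0.64), FOXA2 (-0.77) and CDX2 (-0.82) were among 4 lower and 2 higher, with 2 lower and no call for CDX2 when rich or depleted replicate 2 or 3 was left out, and KLF4, a factor of differentiated enterocytes, rose from 7.64, 8.65 and 7.89 to 18.6, 21.7 and 19.1 CPM. WNT targets and stem cell genes were lower in 10 of 20 cases and higher in 0 (11 and 0 without rich replicate 3). The stem cell receptor gene LGR5 fell from 38.0, 30.8 and 23.6 to 9.64, 10.8 and 11.7 CPM, the secreted WNT inhibitor gene DKK1 from 892, 781 and 554 to 144, 164 and 130 CPM, and CD44 by 1.06. Of 21 junction genes 4 were lower and 1 higher, with CLDN2 far ahead of F11R (-0.88), CTNND1 (-0.50) and CTNNB1 (-0.47), and 2 were lower without rich replicate 1, rich replicate 2 or depleted replicate 2.

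Further lists covered quiescence, oxidative stress, immune and metal genes. FOXO targets and quiescence genes were higher in 8 of 20 cases and lower in 1 (median 0.50; 9 and 1 without rich replicate 3), among them IRS2, the insulin receptor substrate, from 38.4, 41.1 and 44.6 to 78.4, 84.6 and 104 CPM, YPEL2 (1.48) and the ubiquitin ligase gene FBXO32 (2.15). NRF2 targets split into 5 higher and 5 lower of 23, with the aldo-keto reductase genes AKR1C2 (1.63) and AKR1C1 (1.19), which are near-identical copies, and the glutathione synthesis gene GCLC (1.07) higher, and the peroxiredoxin gene PRDX1 (-1.35) lower. The counts were 7 higher and 6 lower without rich replicate 3, and 2 were lower without rich replicate 2. Interferon and antigen presentation genes were lower in 9 and higher in 2 of 26 cases (5 lower without rich replicate 2), led by OAS3, an RNA sensor, from 83.4, 96.3 and 42.1 to 20.2, 20.2 and 14.6 CPM, with the peptide transporter gene TAP2 at -1.20. Of 21 p53 targets 3 were lower and 1 higher, with the cell cycle inhibitor gene CDKN1A (-0.99) and the kinase gene PLK3 (-1.29) among the lower, and lower p53 targets numbered 1 without rich replicate 2. Zinc and iron genes were called in 4 of 12 and 2 of 15 cases (2 and 0 without rich replicate 2 or depleted replicate 3; zinc also 2 without rich replicate 1 or depleted replicate 2; iron also 1 without rich replicate 1, depleted replicate 1 or 2 or depleted vehicle replicate 2), against 24.1% of all genes, with the intestinal zinc importer gene SLC39A4 lower by 2.22.

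Whether these medium differences depended on bafilomycin A1 was tested for every gene as the depleted-minus-rich difference under the drug minus that in vehicle. Of 18047 genes 424 (2.35%) were called positive and 692 (3.83%) negative, or 6.18% in all. Without rich replicate 3 these were 196 (1.05%) and 404 (2.16%) of 18683, 3.21% in all. Ribosome biogenesis genes, which build ribosomal subunits in the nucleolus, held 20 positive and 0 negative calls among 38. The median log2 fold change of the list was -0.95 in vehicle and -0.11 under the drug, where 4 were higher and 4 lower. Relative to the rich mean under the drug, its median log2 level was 0.58 to 0.64 in rich vehicle and -0.33 to -0.23 in depleted vehicle. Under the drug it was 0.06, 0.16 and -0.24 in rich and -0.11 to -0.06 in depleted medium. RRP12, a factor of small subunit export, rose under the drug from 61.6, 73.5 and 53.4 to 114, 133 and 140 CPM (log2 fold change 1.04) against -0.91 in vehicle, a difference of 1.95 (edgeR adjusted p = 0.0041). POLR1B, a core subunit of RNA polymerase I, went from -0.93 in vehicle to 0.55 (interaction 1.48) and NOP58, a snoRNP protein, from -0.95 to 0.50 (1.46). The positive calls numbered 13 without rich replicate 3, 10 without depleted vehicle replicate 1 and 3 with a minimum fold of 1.5. Intestinal identity factors held 6 negative and 0 positive calls among 16, with a median of 0.88 in vehicle and -0.14 under the drug. CDX2, the hindgut master factor, had a log2 fold change of 0.93 in vehicle and -0.82 under the drug (interaction -1.74, edgeR adjusted p = 0.011), and FOXA2, a pioneer factor of endoderm, 0.37 and -0.77 (-1.14, edgeR adjusted p = 0.015). The 6 became 4 without rich replicate 3 and 3 without depleted vehicle replicate 1. Enterocyte genes held 7 negative calls among 30, with 5 without rich replicate 3 and 0 without depleted replicate 3. The ATF4 list held 6 negative calls and 1 positive, with 3 negative without rich replicate 3 and 2 without depleted replicate 2 or 3 or depleted vehicle replicate 1 or 3. Relative to the rich mean under the drug, its median log2 level was -1.08, -0.76 and -0.72 in rich vehicle. In depleted medium that level was 0.31 to 0.47 in vehicle and 0.73 to 0.86 under the drug, so it was higher with the drug. DDIT4, an mTORC1 inhibitor, was higher by 2.61 in vehicle and not called under the drug (0.48, edgeR adjusted p = 0.16; interaction -2.13, edgeR adjusted p = 0.0049), at 101, 136 and 116 CPM in rich and 177, 144 and 171 CPM in depleted medium. Cytosolic heat shock chaperones held 4 positive calls, 2 without rich replicate 3, depleted replicate 3 or depleted vehicle replicate 1 or 3. FOXO targets held 5 negative calls among 20, or 3 without rich replicate 3, depleted replicate 2 or 3 or depleted vehicle replicate 1 or 3, hypoxia genes 4 negative and 1 positive among 23, NRF2 targets 4 negative and 2 positive among 23, and proteasome genes 4 positive among 31. Negative hypoxia calls numbered 2 without rich replicate 2, depleted replicate 1 or 2 or depleted vehicle replicate 2 or 3, and positive ones 0 without rich replicate 1 or 3, depleted replicate 3 or depleted vehicle replicate 1 or 2. Positive NRF2 calls numbered 0 without depleted replicate 2 or depleted vehicle replicate 1 and 1 without any other single library except rich vehicle replicates 2 and 3. Positive proteasome calls numbered 2 without depleted replicate 3 or depleted vehicle replicate 1 and 9 without rich vehicle replicate 2. In each of the other lists at most 3 members were called in a direction, with 2 in glycolysis, 1 in DNA replication and 2 in mitosis. Those low counts also moved with 1 library left out. Negative calls ranged from 0 to 14 for cytosolic ribosomal proteins and from 0 to 8 for lysosomal genes. Positive calls ranged from 2 to 6 for cytosolic aminoacyl-tRNA synthetases.

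**Figure D5:**
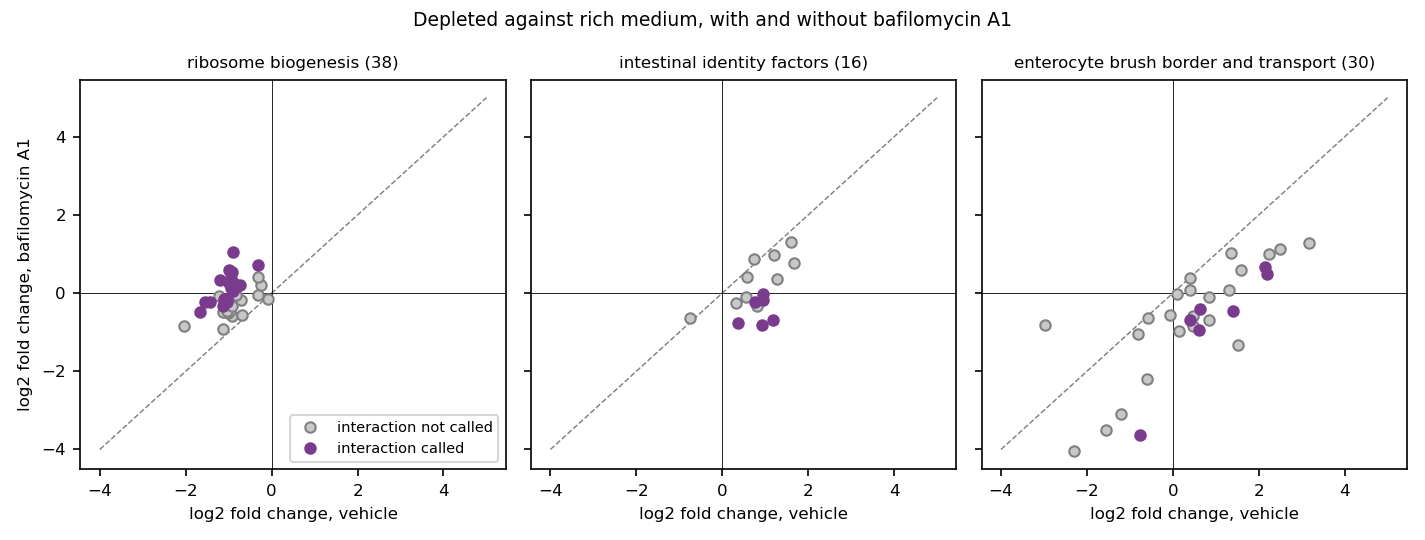
Log2 fold change of depleted against rich medium under bafilomycin A1 (vertical axis) against the same in vehicle (horizontal axis) for the members of 3 lists; the dashed line marks equal values and purple points are genes called in the interaction. Ribosome biogenesis genes lie mostly above the line (20 of 38 called), and intestinal identity and enterocyte genes mostly below it (6 of 16 and 7 of 30 called).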

How the data were processed

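RNA of 12 Caco-2 libraries (4 groups of 3) was sequenced as stranded total RNA after ribosomal depletion, per the labels' protocols. The authors deposited per-library tables of estimated counts and TPM for 54553 genes, and DRAGEN and GRCh38 are named in the submitters' processing notes, with no version or role. The sources used here name neither the annotation nor the strand setting, and antisense partners and close copies are therefore uncertain. A series-wide table of whole-number counts for 13518 genes was deposited too and served as an alternative. The deposited TPM values, which the authors scaled by effective length, back no printed value.

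Estimated counts were rounded, filtered (filterByExpr, minimum count 10, minimum total 15), scaled by TMM and tested in R 4.3.3 with edgeR 4.0.16's robust quasi-likelihood test on all 12 libraries (8 residual degrees of freedom), with Benjamini-Hochberg adjustment over all 18047 genes and a threshold of 0.05. All 4 groups entered 1 fit so that they share an estimate of spread. CPM are TMM-scaled. The interaction was a contrast of the same fit. DESeq2 1.42.0, other scaling, filters, samples and a minimum fold were alternatives. In a simulation of 17585 genes, 100 were changed 2-fold and 100 4-fold, with the weakest genes left out of the choice. The test recovered 57% and 84% of them, with 2.76% of calls false. No simulated library was made to stand apart and far fewer genes changed than were called here, so these rates may not carry over.

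Members and gene lists were chosen with earlier results of these data known. Named genes are the 10 highest and 10 lowest called genes (mean CPM 5 or more over the 6 libraries), with groups that did not overlap and a call that held without rich bafilomycin replicate 3, plus up to 4 called members of each list with at least 1 CPM in its main direction, up to 2 in the other, and a panel of commonly read genes. Promoters and symbols came from RefSeq (GRCh38.p14). A few genes the rule names are not reported here but stay in the counts of their lists.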

Additional observations from a re-analysis of the deposited data

Results flagged for a closer look

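The named genes below had a depleted-minus-rich difference under bafilomycin A1 that differed from that in vehicle by the interaction test of edgeR at an adjusted p under 0.05. Each value is the log2 fold change under the drug minus that in vehicle, and 34 reported genes qualified. For 15 of them the call held when any 1 of the 12 libraries was left out.

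Among those 15 the positive values were those of the ribosome biogenesis genes RRP12 (1.95), POLR1B (1.48) and NOP58 (1.46) and the transporter gene SLC36A4 (1.74). The negative ones were those of PPARA (-1.29), the cyclin gene CCND1 (-1.83), the aldo-keto reductase genes AKR1C2 (-1.33) and AKR1C1 (-1.77), YPEL2 (-1.89), the intestinal factor genes CDX2 (-1.74) and FOXA2 (-1.14), CLDN2 (-2.48), DDIT4 (-2.13), the growth factor receptor gene PDGFRB (-2.69) and SIGLEC6 (-2.57).

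The other 19 lost the call in at least 1 fit that left out a library. Positive values were found for ATF3 (1.07), HSP90AA1 (1.09), NPRL2 (1.33), GNL3 (1.04) and GCLC (0.69). Negative values were found for JDP2 (-0.88), SLC38A3 (-1.81), SLC2A3 (-1.66), CA12 (-1.91), SCD5 (-2.0), ULK1 (-0.91), CTSB (-1.04), LCT (-2.88), SLC39A5 (-1.37), HEPH (-1.24), GDF15 (-1.53), HNF4A (-0.99), SH3TC2 (-1.65) and CKB (-2.07).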

How the results depend on the processing

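Genes called higher under depletion numbered 1893, and 294 with a minimum fold of 1.5, 2860 in a fit of only the 6 libraries, and 2912 without rich bafilomycin replicate 3 and rich vehicle replicate 1 together. Leaving out 1 library gave 891 to 2554. Genes called lower numbered 2459, 810 with the minimum fold, and 1455 to 2945 with 1 library left out. Interaction calls were 424 positive and 692 negative. DESeq2 called 892 and 1201, the minimum fold 27 and 112, and no low-count filter 1246 negative. Leaving out 1 library gave 126 to 766 positive and 259 to 1078 negative. The cause of these shifts was not tested. Leaving out vehicle libraries was added after seeing the data. No named gene called in the main or the alternative fit reversed direction between them. Named genes called in neither fit changed sign in some runs, 5 of them without depleted bafilomycin replicate 3.

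Deviations from the group mean correlated at -0.081, -0.051 and 0.042 between same-numbered libraries of the rich and depleted bafilomycin groups. Different-numbered libraries gave -0.045 to 0.101. Vehicle libraries were left out of these correlations, so they cannot exclude an effect shared by replicates of the same number. A replicate block gave 2335 higher and 2984 lower calls, and 742 positive and 1227 negative interaction calls. Not every library correlated best with its own number.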
